A study of Mus musculus with 40 samples.

Results

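The control and the traffic of iron were followed in the liver RNA of 40 mice through 9 genes: Hamp, Hamp2, Tfrc, Tfr2, Slc40a1, Slc11a2, Fth1, Bmp6 and Hfe. They were chosen by name for their part in iron handling, with earlier results of these data known, and matched by symbol to 9 of 55359 counted identifiers. All 9 passed the filter on low counts that left 15373 genes for testing. The livers came from male C57BL/6 mice that entered the study at an age of 30 days and left it at 58 days. The mice received 0.1 ml sesame oil by gavage every 4 days for 28 days, 7 gavages in all, and tissue was collected early in the light phase. The oil was given alone (vehicle) or carried TCDD, a dioxin that persists in tissue and activates the aryl hydrocarbon receptor, at 0.03 or 0.1, 0.3 or 1, 3 or 10, or 30 μg/kg. Each of the 8 groups held 5 mice with 1 library per mouse, and the 7 doses share 1 set of 5 vehicle mice as their control.

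Hepcidin, the peptide hormone encoded by Hamp, is made in hepatocytes and lowers plasma iron by binding ferroportin, the only known iron exporter of cells, and causing its breakdown. Its transcription is driven by bone morphogenetic proteins (BMPs) acting through SMAD factors and by interleukin-6 acting through STAT3. The transferrin receptors, the divalent metal importer and the ferritin shell take up and store iron, and several of their messenger RNAs are controlled by iron regulatory proteins.

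The total count assigned to genes was 15496128 to 20967093 per library. Cyp1a1, the standard target of the aryl hydrocarbon receptor, ranged from 0.979 to 2.33 CPM (the usual read count scaled to the size of the library, here with TMM factors) in vehicle and from 109 to 237 CPM at 0.03 μg/kg, with no overlap between the 2 groups. At 30 μg/kg it ranged from 4750 to 6376 CPM. The hepatocyte markers Alb, Ttr, Apoa1, Apob, Serpina1c, Cps1, Hnf4a and Asgr1 summed to 99567 to 120717 CPM in vehicle and to 29411 to 60616 CPM at 30 μg/kg, where 6 of the 8 were called lower. In bulk samples such as these, fewer cells of a type and less RNA per cell cannot be told apart. The part of this fall in the changes of the iron genes was not tested. The libraries fall into 2 runs of title numbers, 1 to 27 (19 libraries) and 28 to 54 (21 libraries), and each group had mice in both.

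Mice carry a duplicated hepcidin gene, and the promoters of the 2 copies are shown because the share of Hamp2 in the reads of the pair changed with dose. The 250 bases before each start site are given from RefSeq (GRCm38.p6), for Hamp at chr7:30944030-30944279 and for Hamp2 at chr7:30924182-30924431, both on the minus strand. Capitals mark the letters GGCGCC, known as a BMP response element, with the aligned letters of Hamp2, and then the STAT half-sites TTCNNNGAA.
Hamp: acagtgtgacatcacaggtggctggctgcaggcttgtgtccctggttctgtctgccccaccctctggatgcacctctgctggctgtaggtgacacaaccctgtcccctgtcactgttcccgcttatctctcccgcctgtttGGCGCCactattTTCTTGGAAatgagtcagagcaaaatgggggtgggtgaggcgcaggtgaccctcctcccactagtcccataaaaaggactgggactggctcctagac
Hamp2: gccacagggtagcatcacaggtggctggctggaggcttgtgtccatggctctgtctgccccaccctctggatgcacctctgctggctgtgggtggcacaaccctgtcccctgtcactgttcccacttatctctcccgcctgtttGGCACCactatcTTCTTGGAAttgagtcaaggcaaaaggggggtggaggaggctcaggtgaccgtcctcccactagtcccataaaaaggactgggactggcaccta
The 2 windows, each taken to 50 bases past the start, matched at 276 of 303 aligned columns (91.1%). In Hamp the GGCGCC letters began 109 bases before the start, and of the 7 genes with a window only Tfrc also held them, 89 bases before a start. In Hamp2 the aligned letters held the substitution G4A, with positions counted from 1 at the 5′ end of the 6 letters of Hamp, so they were not a match. TTCNNNGAA was found in both, 97 bases before the start in Hamp and 94 bases before it in Hamp2. On either strand, 11.9% of the 32851 promoter windows of that length in RefSeq held GGCGCC and 8.30% held TTCNNNGAA. The dioxin response element core GCGTG, which 32.4% of all promoter windows held, was in windows of Tfrc, Tfr2, Fth1 and Bmp6 and not in those of Hamp, Hamp2 or Hfe. Slc40a1 and Slc11a2 were not searched. The 7 genes searched had 11 windows, with 3 for Tfr2 and 2 each for Tfrc and Fth1. The percentages are shares of single windows, so they cannot be set against a count of genes. The E-box CACGTG (7.15% of all windows) was in the window of Bmp6, and TGANNNNGC, the core of the antioxidant response element (41.3%), in those of Bmp6 and Hfe. A match of letters is a description and says nothing of binding.

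The levels of the 9 genes differed widely in vehicle livers. Per kilobase of exon, Hamp stood at 874 ± 412 CPM (SD, n = 5), above Fth1 at 526 and Tfr2 at 123 CPM per kilobase. Hfe, Slc40a1, Slc11a2 and Tfrc lay between 16.6 and 5.96 CPM per kilobase, and Bmp6 at 0.841. Relative to its mean, Hamp was also the gene with the widest spread between vehicle mice (coefficient of variation 47.1%). Hamp2 is left out of this order because its level depends on how reads shared with an overlapping gene are counted, as described below.

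**Figure D1:**
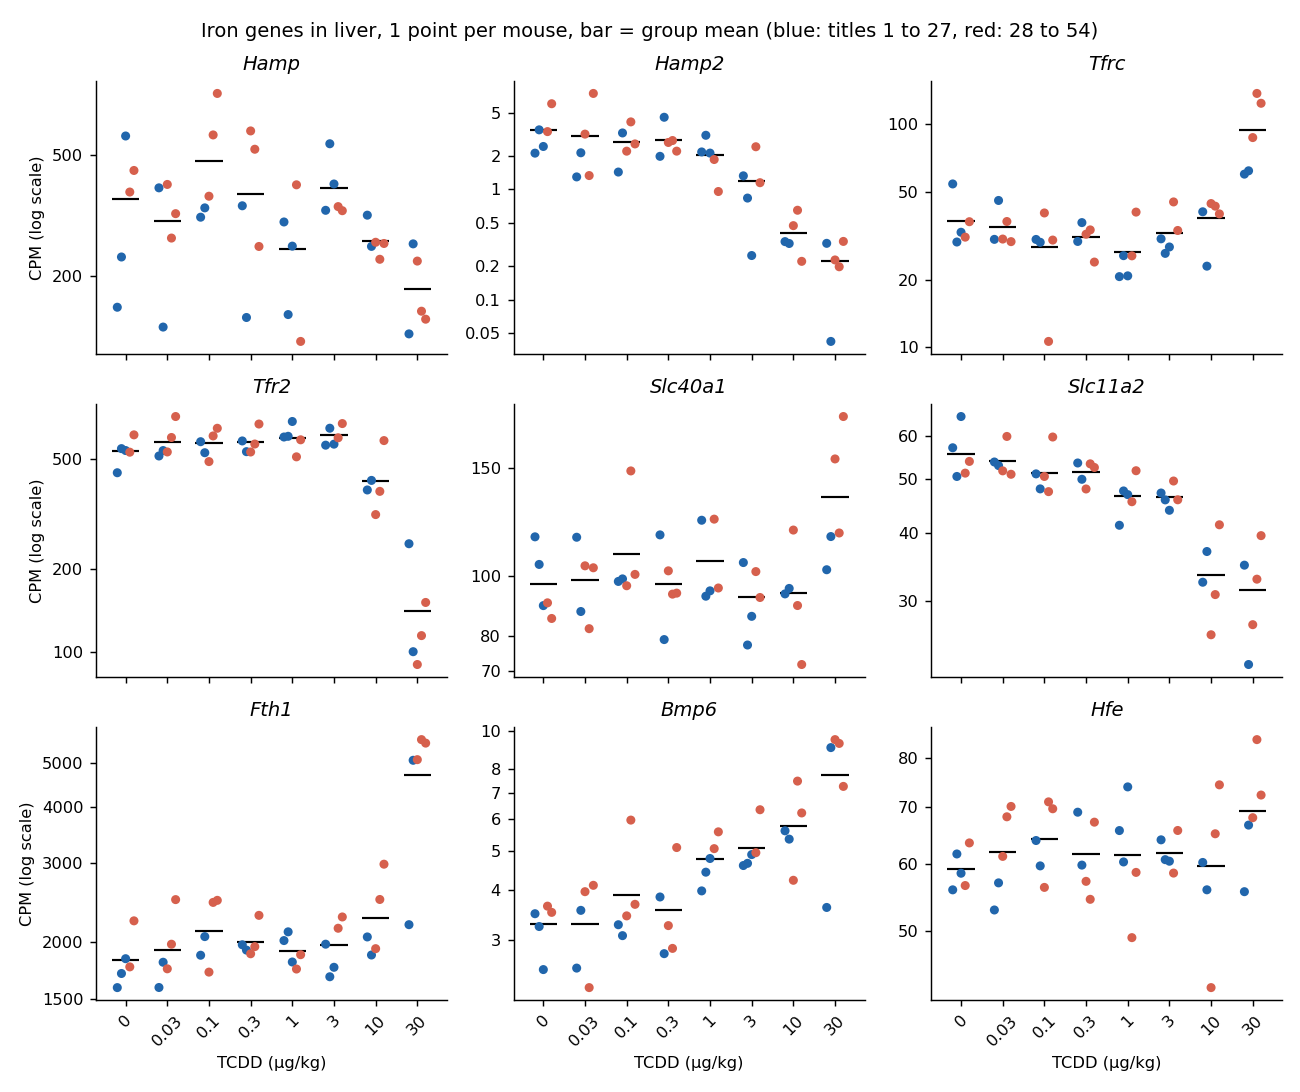
CPM (log axis) of the 9 iron genes in each of the 40 livers against the TCDD dose in μg/kg, where 0 is vehicle, each point is 1 mouse and each bar is the mean of 5 mice. Hamp2 declined from 3.49 CPM in vehicle to 0.226 CPM at 30 μg/kg, and Hamp, Tfr2, Tfrc and Fth1 were called at 30 μg/kg only. Blue and red points separate the title numbers 1 to 27 and 28 to 54.

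A gene was called when edgeR's quasi-likelihood test gave an adjusted p under 0.05 over all genes tested and the fold change was at least 1.5. None of the 9 genes was called at 0.03, 0.1, 0.3 or 1 μg/kg, where 0.0195%, 0.0976%, 0.468% and 2.78% of all genes tested were called. DESeq2 also called 0 at these doses. The unadjusted p was under 0.05 for 0 of the 9 genes at the 3 lowest doses and for 2 at 1 μg/kg. At 3 μg/kg 1 of 9 was called, Hamp2, beside 6.75% of all genes. At 10 μg/kg 3 of 9 were called (Bmp6 higher, Hamp2 and Slc11a2 lower) beside 21.8%. At 30 μg/kg 7 of 9 were called beside 42.1% of all genes, with Tfrc, Fth1 and Bmp6 higher and Hamp, Hamp2, Tfr2 and Slc11a2 lower. With total counts alone setting the library sizes 7 were also called, but 5 higher and 2 lower: Hamp and Slc11a2 were no longer called, and Slc40a1 and Hfe were. The median log2 fold change of the 9 genes at 30 μg/kg was 0.23 and that of all genes tested was 0.03. A slope over the ordered doses had an adjusted p under 0.05 in 7 of the 9 genes beside 57.7% of all genes, and Slc40a1 and Hfe were the others. Without the 30 μg/kg group 3 of the 9 genes kept such a slope.

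**Figure D2:**
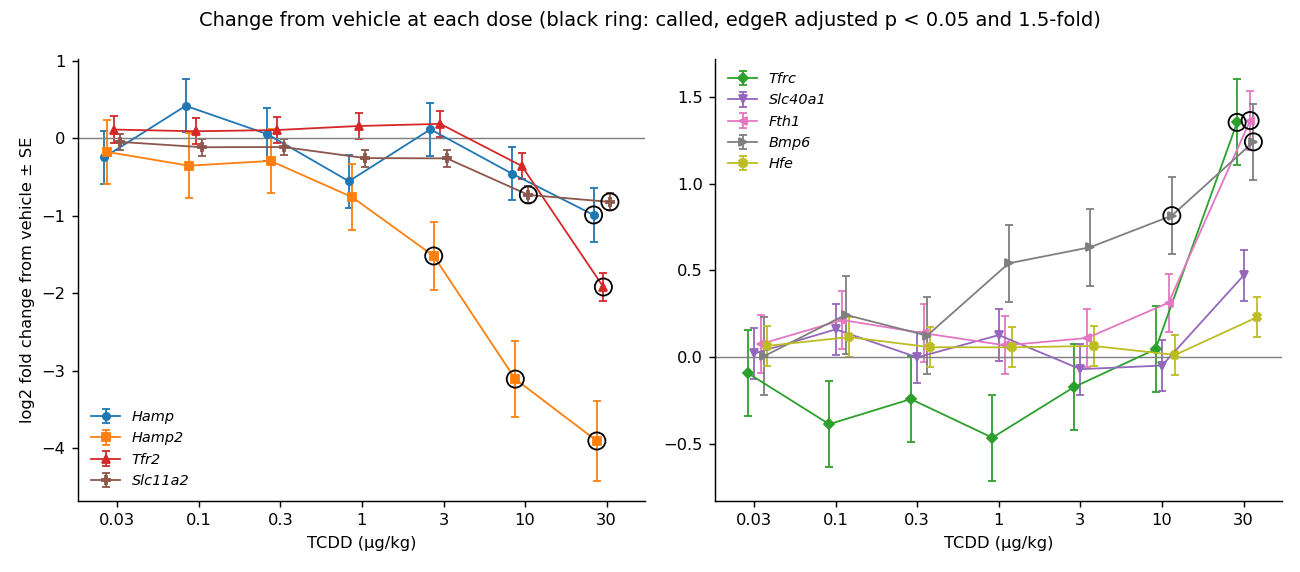
Log2 fold change from vehicle ± SE of each iron gene against the TCDD dose in μg/kg, with black rings around called values. The left panel holds the genes that were lower at 30 μg/kg, with Hamp2 down to -3.91, and the right panel holds the remaining genes, with Tfrc, Fth1 and Bmp6 at 1.35, 1.36 and 1.24 at that dose.

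Hamp was repressed 1.99-fold at 30 μg/kg TCDD, the only dose at which it was called. In vehicle, the 5 mice measured 157, 231, 580, 378 and 446 CPM. Those given 30 μg/kg measured 128, 255, 223, 152 and 143 CPM. The treated group was the lower one with 3 of its 5 mice below every vehicle mouse, yet the groups overlapped because 2 vehicle mice lay within the treated range. The log2 fold change was -0.99 with an SE of 0.35 (adjusted p = 0.0144, edgeR), with all 5 treated mice below the vehicle mean. The group means of Hamp did not fall steadily with dose. Vehicle averaged 358 CPM, and the groups from 0.03 to 3 μg/kg lay between 244 CPM (1 μg/kg) and 480 CPM (0.1 μg/kg). The 1 μg/kg group differed from vehicle by -0.55 on the log2 scale, which was not called (adjusted p = 0.487, edgeR). Hamp at 10 μg/kg was 261 ± 33.5 CPM (SD, n = 5), a log2 difference of -0.45 that was not called (adjusted p = 0.335, edgeR). The step from 10 to 30 μg/kg was not called either (-0.53, adjusted p = 0.25, edgeR), with 4 of 5 mice at 30 μg/kg below every mouse at 10 μg/kg. The call at 30 μg/kg was lost without vehicle replicate 3, the highest of that group (-0.75, adjusted p = 0.0728), within title numbers 1 to 27 (-0.76, adjusted p = 0.292), and when total counts alone set the library sizes (-0.46, adjusted p = 0.249). That scaling moved the median log2 fold change of all genes from 0.03 to 0.52.

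Hamp2, the hepcidin paralog, was repressed further and from a lower dose. Its counts were small. Vehicle mice measured 2.14, 3.48, 2.46, 3.36 and 6.02 CPM, from 38 to 84 counts. At 3 μg/kg the mice measured 1.33, 0.836, 0.251, 2.45 and 1.15 CPM. All 5 were below the vehicle mean and 4 of 5 were below every vehicle mouse. The 10 μg/kg mice measured 0.336, 0.323, 0.469, 0.648 and 0.222 CPM. The 5 mice given 30 μg/kg measured 0.324, 0.0416, 0.229, 0.198 and 0.337 CPM, from 1 to 8 counts. Neither of these 2 groups overlapped vehicle. By edgeR the log2 fold change was -1.52 with an SE of 0.44 at 3 μg/kg (adjusted p = 0.021), -3.11 with an SE of 0.49 at 10 μg/kg (adjusted p = 4.55e-06) and -3.91 with an SE of 0.51 at 30 μg/kg (adjusted p = 3.33e-08). The step from 3 to 10 μg/kg was called (-1.59, adjusted p = 0.0386, edgeR), and that from 10 to 30 μg/kg was not (-0.80, adjusted p = 0.312). The call at 3 μg/kg was lost without replicate 2 or 3 of that dose (-1.41 and -1.26) or without vehicle replicate 5 (-1.24), and within either run of title numbers (-1.74 and -1.37).

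The unstranded Hamp2 counts hold a small share of the reads that touch its exons. The libraries keep no strand, exons of Hamp2 overlap those of Gm44662 on the opposite strand, and a read that touches exons of 2 genes is left out of the unstranded counts. The 2 strand-specific columns, which keep such reads, summed to 1038 to 2055 for Hamp2 in vehicle mice, so that the unstranded counts were 3.47% of that sum. At 30 μg/kg the sums were 129 to 303. With these sums the log2 fold changes were -1.35 at 3 μg/kg (adjusted p = 0.0226), -2.28 at 10 μg/kg (adjusted p = 3.37e-05) and -3.66 at 30 μg/kg (adjusted p = 4.25e-09, edgeR), and Hamp2 was called at the same 3 doses. Reads of Hamp2 and of Gm44662 cannot be told apart in these sums, so the share of its own reads that Hamp2 lost is not known.

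The share of Hamp2 in the reads of the pair does not depend on how the libraries were scaled. In unstranded counts it was 1.09 ± 0.439% in vehicle (SD, n = 5), 0.337 ± 0.254% at 3 μg/kg, 0.158 ± 0.0795% at 10 μg/kg and 0.147 ± 0.0975% at 30 μg/kg. At 10 and 30 μg/kg every mouse lay below every vehicle mouse (exact permutation p = 0.00794 at each, the smallest that 5 mice against 5 can give, adjusted p = 0.0278 over 7 doses), and at 3 μg/kg the exact permutation p was 0.0159 (adjusted p = 0.037). Over the 8 ordered dose groups the share changed by -0.146 percentage points per step (permutation p = 0.00032, 2-sided, 100000 resamples). Within title numbers 1 to 27 it changed by -0.148 per step (permutation p = 0.0594). With the strand-specific sums the vehicle share was 23.9 ± 8.29% and the share with 30 μg/kg TCDD was 4.76 ± 3.22% (SD, n = 5). The exact permutation p with these sums, not adjusted over doses, was 0.0317 at 3 μg/kg, 0.0159 at 10 μg/kg and 0.00794 at 30 μg/kg. At 10 μg/kg the groups then overlapped, with treated mice up to 12.6% and vehicle mice down to 10.4%. The slope was -2.70 points per step (permutation p = 7e-05). Both the size of the share and the separation of the groups thus depend on the counting. The 2 messages are 88.8% identical, and reads that map to both are not counted for either.

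**Figure D3:**
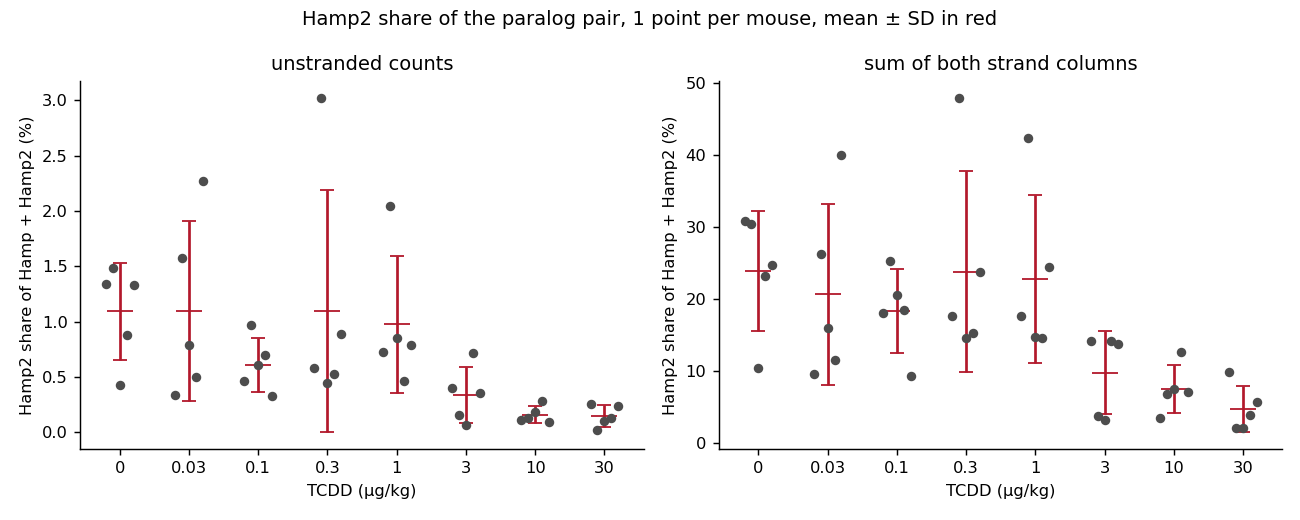
Percentage of the reads of Hamp and Hamp2 that were counted for Hamp2 in each mouse (grey points), with mean ± SD in red, against the TCDD dose in μg/kg. The left panel uses unstranded counts and the right panel the sum of both strand-specific columns, and the vehicle means are 1.09% and 23.9%.

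Bmp6, the ligand made by liver sinusoidal endothelial cells that drives hepcidin transcription, was induced 1.76-fold at 10 μg/kg and 2.36-fold at 30 μg/kg. Vehicle livers measured 3.48, 3.23, 2.52, 3.64 and 3.51 CPM. The 10 μg/kg mice measured 5.62, 5.35, 4.22, 7.48 and 6.22 CPM. The 30 μg/kg mice measured 3.61, 9.07, 9.50, 9.29 and 7.25 CPM. No mouse at 10 μg/kg fell in the vehicle range, and at 30 μg/kg replicate 1 alone did. The log2 fold change was 0.81 with an SE of 0.22 at 10 μg/kg (adjusted p = 0.00387, edgeR) and 1.24 with an SE of 0.22 at 30 μg/kg (adjusted p = 7.99e-06, edgeR). At 1 and 3 μg/kg the groups also did not overlap vehicle, but the log2 differences of 0.54 and 0.63 were not called (adjusted p = 0.204 and 0.0622, edgeR). The call at 10 μg/kg was lost within either run of title numbers (0.81, adjusted p = 0.0918, and 0.74, adjusted p = 0.155). Bmp6 shares exonic bases with Txndc5 on the other strand, and the strand-specific columns held 14.7% more reads. Of the 8 sinusoidal endothelial markers (Stab2, Lyve1, Clec4g, Oit3, Kdr, Pecam1, Fcgr2b and Gpr182, none at 0), 6 were called higher at 10 μg/kg and 5 at 30 μg/kg, and their sum was 190 to 267 CPM in vehicle, 344 to 386 CPM at 10 μg/kg and 326 to 432 CPM at 30 μg/kg. Their part in the rise of Bmp6 was not tested.

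Tfr2, the hepatocyte sensor of iron-loaded transferrin and an upstream input of hepcidin, was repressed 3.79-fold at 30 μg/kg. In vehicle livers the values were 446, 545, 536, 529 and 611 CPM. With 30 μg/kg TCDD the values were 247, 101, 90.4, 115 and 152 CPM. Every treated mouse was below every vehicle mouse, with replicate 1 the nearest to vehicle. The log2 fold change was -1.92 with an SE of 0.18 (adjusted p = 8.95e-12, edgeR). Up to 3 μg/kg the group means lay between 533 and 608 CPM, and at 10 μg/kg Tfr2 was 417 ± 100 CPM (SD, n = 5), which was not called against vehicle (-0.36, adjusted p = 0.109, edgeR). The step from 10 to 30 μg/kg was -1.56 with an SE of 0.17 (adjusted p = 1.66e-08, edgeR). Hfe, a partner of Tfr2 in iron sensing that is mutated in hereditary hemochromatosis, stood at 59.2 ± 3.27 CPM in vehicle mice and reached 69.3 ± 10.3 CPM with 30 μg/kg (SD, n = 5). Its log2 difference of 0.23 was not called (adjusted p = 0.0913, edgeR), and it became a call with scaling to total counts alone (0.72).

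Tfrc, the transferrin receptor through which most cells take up iron, was induced 2.55-fold at 30 μg/kg. Values in the vehicle mice were 54.1, 29.7, 32.8, 31.2 and 36.6 CPM. TCDD at 30 μg/kg gave 59.9, 61.9, 87.3, 138 and 125 CPM. Every treated mouse was above every vehicle mouse, and the mice from title numbers 1 to 27 (replicates 1 and 2) were the lowest of the treated group. The log2 fold change was 1.35 with an SE of 0.25 (adjusted p = 1.5e-05, edgeR) and 0.63 within title numbers 1 to 27, where the call was lost (adjusted p = 0.0544). Tfrc at 10 μg/kg was 38.1 ± 8.56 CPM (SD, n = 5), which was not called against vehicle (0.04, adjusted p = 0.915, edgeR). The step from 10 to 30 μg/kg was called (1.31, adjusted p = 7.47e-05, edgeR). Tfrc is abundant in dividing and erythroid cells. All 7 markers of dividing cells were called higher at 10 and at 30 μg/kg, and their sum went from 4.51 to 6.78 CPM in vehicle to 30.9 to 61.5 and 60.2 to 88.2 CPM. Of the 8 erythroid markers 6 were tested, of which 0 were called higher and 2 lower by edgeR at 30 μg/kg, and their sum was 238 to 395 CPM in vehicle and 88.4 to 460 CPM at 30 μg/kg. The part of these cells in the rise of Tfrc was not tested.

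Slc11a2, the divalent metal transporter that moves iron across the cell or endosome membrane, was repressed 1.66-fold at 10 μg/kg and 1.77-fold at 30 μg/kg. With vehicle alone, the mice measured 57.1, 50.6, 65.1, 51.3 and 53.9 CPM. The 10 μg/kg mice measured 32.5, 37.0, 26.1, 30.8 and 41.3 CPM. In the 30 μg/kg group the values were 34.9, 23.0, 27.2, 32.9 and 39.5 CPM. Both treated groups lay wholly below vehicle. The log2 fold change was -0.73 with an SE of 0.11 at 10 μg/kg (adjusted p = 1.99e-06, edgeR) and -0.82 with an SE of 0.11 at 30 μg/kg (adjusted p = 4.82e-08, edgeR). The step between these 2 doses was not called (-0.09, adjusted p = 0.572, edgeR). At 3 μg/kg the 5 mice were also below every vehicle mouse, but the change of -0.26 was not called (adjusted p = 0.14, edgeR). On total counts alone the values were -0.53 and -0.34 and fell under the fold threshold. Exons of Slc11a2 overlap those of Gm5475 on the other strand, and the strand-specific columns held 2.53% more reads. Slc40a1, the gene of ferroportin, stood at 97.1 ± 12.7 CPM in vehicle mice and reached 134.5 ± 32.9 CPM with 30 μg/kg (SD, n = 5). Its log2 difference of 0.47 with an SE of 0.15 had an adjusted p of 0.00672 (edgeR) but stayed under the fold threshold, which it passed with total counts alone (0.96) and within title numbers 28 to 54 (0.76). Within title numbers 1 to 27 the difference was 0.066 (adjusted p = 0.82, edgeR).

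Fth1, the ferritin heavy chain that oxidizes and stores iron, was induced 2.57-fold at 30 μg/kg. The 5 vehicle values were 1587, 1706, 1840, 1764 and 2232 CPM. After 30 μg/kg the mice measured 2189, 5064, 5081, 5628 and 5529 CPM. Replicates 2 to 5 were above every vehicle mouse, and replicate 1 lay within the vehicle range. The log2 fold change was 1.36 with an SE of 0.17 (adjusted p = 1.11e-08, edgeR) and 1.54 without replicate 1. Fth1 at 10 μg/kg was 2267 ± 465 CPM (SD, n = 5), which was not called (0.31, adjusted p = 0.157, edgeR), and the step from 10 to 30 μg/kg was called (1.05, adjusted p = 6.83e-06). Fth1 has many processed copies in the genome, and reads that map to several places are not counted. Macrophages are rich in ferritin. Of the 8 Kupffer cell markers 7 were called higher at 30 μg/kg, with a sum of 137 to 194 CPM in vehicle and 470 to 1112 CPM at that dose. All 8 markers of recruited macrophages were called higher, with sums of 64.5 to 86.1 and 219 to 1102 CPM. At 10 μg/kg 6 of the Kupffer cell markers were called higher. Of the recruited macrophage markers, 6 were called higher and 1 lower at 10 μg/kg. The mean sum of the Kupffer cell markers was 169 CPM in vehicle, 415 CPM at 10 μg/kg and 785 CPM at 30 μg/kg. For the recruited macrophage markers the 3 mean sums were 77.5, 175 and 827 CPM. None of these 16 markers was at 0. The part of these cells in the rise of Fth1 was not tested.

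**Figure D4:**
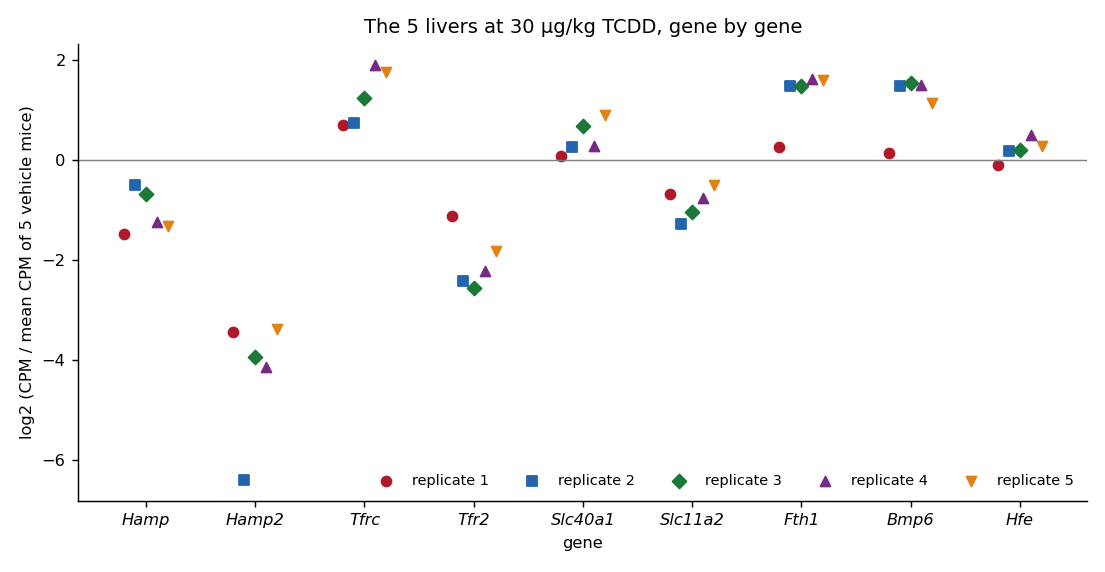
Log2 ratio of the CPM of each of the 5 mice at 30 μg/kg TCDD to the mean of the 5 vehicle mice, by gene, with 1 symbol per mouse. Replicate 1 was nearest to vehicle for Tfrc, Tfr2, Slc40a1, Fth1, Bmp6 and Hfe, and farthest from it for Hamp.

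The mice at 30 μg/kg did not stand in the same order for all genes. Replicate 1 was the nearest to the vehicle mean for 6 of the 9 genes and had the lowest Hamp of its group. Without this mouse 7 of 9 genes were again called at 30 μg/kg. The step from 10 to 30 μg/kg was called for 3 of the 9 genes with all mice (Tfrc and Fth1 higher, Tfr2 lower) beside 21.1% of all genes, and for 5 without this mouse, with Bmp6 (0.60) and Slc40a1 (0.60) added. Scaling to total counts alone added the same 2 genes (0.74 and 0.78).

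The other genes of the pathway were taken from lists of 65 genes, 60 of which were tested. At 30 μg/kg 32 of the 60 were called, 17 higher and 15 lower, beside 42.1% of all genes tested. On total counts alone 26 were higher and 6 lower. At 10 μg/kg 15 of the 60 were called beside 21.8%.

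Among 13 tested inputs of the BMP pathway, 2 were called higher and 4 lower, and the median log2 fold change was -0.04. Bmp2, the second endothelial ligand of hepcidin, rose from 12.8 ± 3.38 to 29.2 ± 7.10 CPM (log2 fold change 1.19). Fkbp1a, a binding protein of BMP receptors, rose by 0.92. Tmprss6, the protease that restrains hepcidin, fell from 612.7 ± 85.8 to 254 ± 60.6 CPM (-1.27), and its substrate hemojuvelin (Hjv), the BMP coreceptor, fell from 114 ± 6.91 to 61.7 ± 9.13 CPM (-0.89). Among 7 target genes of BMP signaling 4 were higher and none lower by edgeR, with Id1 at 1.87, Atoh8 at 1.29, Smad6 at 0.91 and Smad7 at 0.64 on the log2 scale, and a list median of 0.64. The 4 called targets and Hamp had changes of opposite sign at 30 μg/kg, a dose at which 42.1% of all genes tested were called. The other 3 targets, Id3 (0.27), Bambi (0.33) and Id2 (-0.04), were not called. The call of Hamp was lost when total counts alone set the library sizes. At 30 μg/kg 5 of the 8 sinusoidal endothelial markers were called higher and 6 of the 8 hepatocyte markers lower. The part of these cells in the changes of the targets and of Hamp was not tested.

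The list of interleukin-6 and STAT3 inputs also held Cebpa, Creb3l3 and Inhbb, which reach hepcidin by other routes. Among its 9 tested genes 2 were higher and 2 lower, with a median of 0.08, and of those called only Socs3 belongs to interleukin-6 signaling itself. Inhbb, a subunit of activin B, which acts through receptors of the BMP and activin family, rose from 0.870 ± 0.228 to 12.5 ± 8.93 CPM (log2 fold change 3.83), and the feedback inhibitor Socs3 rose by 1.41. Cebpa, a hepatocyte factor that binds the hepcidin promoter, fell from 459 ± 56.9 to 147 ± 25.4 CPM (-1.65), and Creb3l3, a stress-activated liver factor, changed by -0.70 and was also called lower. Il6 itself was not tested because its counts were too low.

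Iron regulatory proteins bind the messages of Tfrc, Fth1, Slc40a1 and some forms of Slc11a2. Both of their genes fell at 30 μg/kg, Aco1 from 330 ± 24.6 to 163 ± 32.3 CPM (-1.01) and Ireb2 from 73.5 ± 15.4 to 46.3 ± 9.89 CPM (-0.67). Fbxl5, which marks Ireb2 for breakdown, was not called (0.32). None of the 4 tested genes of iron storage and chaperones was called by edgeR, although 1 of them, the ferritin light chain Ftl1, had an adjusted p of 0.00871 with a log2 difference of 0.52.

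Among the lists, which differed in size, heme breakdown and export had the most calls at 30 μg/kg. There 6 genes were higher and 2 lower of 9, beside 42.1% of all genes tested. Hmox1, the heme oxygenase that frees iron from heme, rose from 15.0 ± 1.5 to 215 ± 107 CPM (log2 fold change 3.84), and the heme transporter Slc48a1 rose from 51.8 ± 7.55 to 379 ± 153 CPM (2.87). The biliverdin reductase Blvrb and the heme exporter Flvcr1 each rose by 1.56, and Flvcr2 was lower (-1.76). The part of macrophages, whose markers are given beside Fth1, in these changes was not tested.

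Among 10 tested iron transporters and reductases 2 were higher and 3 lower. Heph, a copper oxidase that helps ferroportin export iron, rose from 0.995 ± 0.160 to 13.2 ± 7.24 CPM (log2 fold change 3.72), and the mitochondrial importer Slc25a28 rose by 1.00. Slc39a14, which takes up iron that is not bound to transferrin, fell from 155 ± 6.70 to 40.3 ± 16.6 CPM (-1.94), and the endosomal reductase Steap3 was lower (-1.07). Of 5 tested plasma carriers 1 was higher and 2 lower. Lcn2, which binds bacterial iron chelators, rose from 5.15 ± 1.77 to 124 ± 75.1 CPM (4.58). The hemoglobin carrier Hp (-1.81) and the ferroxidase Cp (-0.90) were lower. Of the 6 neutrophil markers 3 were tested and called higher, and Ly6g and Mpo were at 0 in vehicle. The sum of the 6 was 0.140 to 1.39 CPM in vehicle and 7.50 to 28.7 CPM at 30 μg/kg. The part of these cells in the rise of Lcn2 was not tested.

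**Figure D5:**
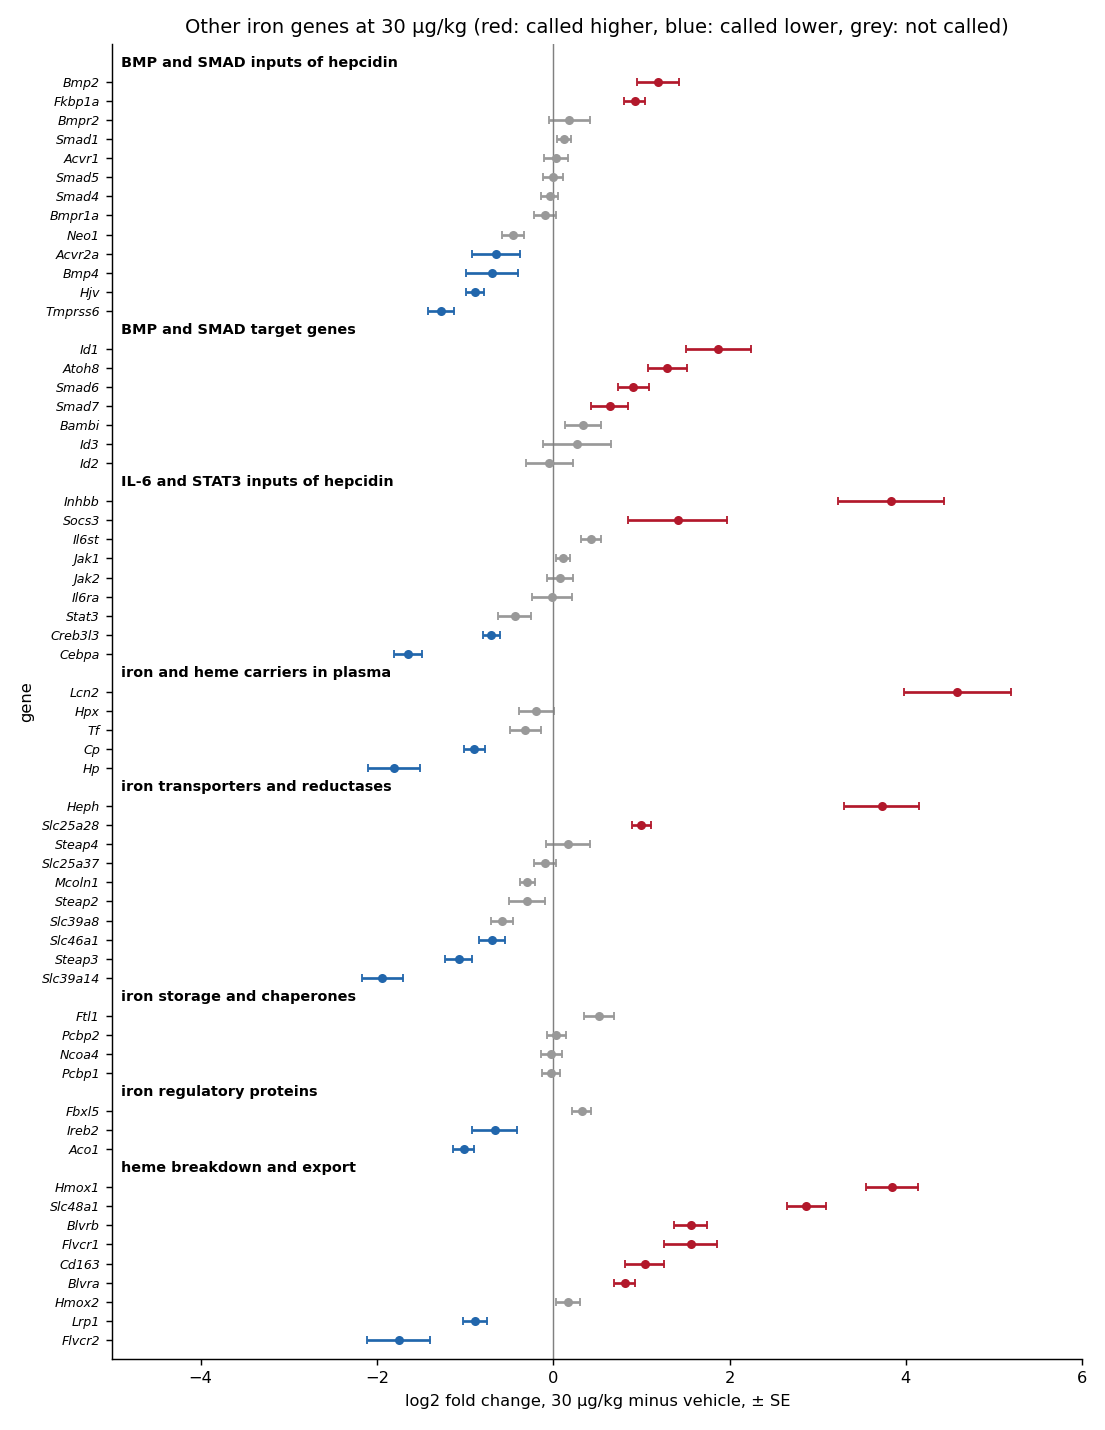
Log2 fold change ± SE at 30 μg/kg TCDD against vehicle of the 60 tested genes of the wider iron lists, grouped by list, with genes called higher in red, called lower in blue and not called in grey. The largest rises were those of Lcn2 (4.58), Hmox1 (3.84), Inhbb (3.83) and Heph (3.72), and the largest fall was that of Slc39a14 (-1.94).

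The genes whose log2 CPM followed most closely each of the 7 iron genes called at any dose were sought over the 40 libraries, which share the dose as a common factor, so no p is given. Among these 7 genes Tfr2 had the closest partners, Abcc6 (Pearson r = 0.99), Gchfr and Serpinf2 (both 0.98). Fth1 was followed by Psap, Slc25a3 and Prdx3 (all 0.97), Hamp2 by Sult1a1 (0.91), Sqor and Tcea3 (both 0.90), and Slc11a2 by Pdilt, Calr and Gltpd2 (all 0.91). Bmp6 was followed by Tgfbr2, Slc43a2 and Aqp1 (all 0.87), and Tfrc by Etnppl (0.81), Lacc1 and Nipal2 (both 0.80). Hamp had the loosest partners of the 7, Amotl2 (0.62), Id2 and Spin1 (both 0.57).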

How the data were processed

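RNA from 40 mouse livers was sequenced as 150 bp paired-end reads. For every library the authors deposited raw gene counts in 1 unstranded and 2 strand-specific columns, and a normalized log2 table of 23120 genes, which equalled the blind variance-stabilizing transformation of DESeq2 within 5.03e-10. The submitters' processing notes name FastQC 0.11.7, Trimmomatic 0.39 and STAR 2.7.3a. They list the builds GRCm39 and mm10 with no role, and which of them, and which annotation, served for counting is not given in the sources used here. Unmapped reads and those in no gene, in several genes or in several places, together 19.2% to 28.7% of all reads, were left out. The first strand column held 50.0% to 50.3% of the counts of both, so the unstranded column was used.

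Groups came from the dose labels. The labels name separate mice. Counts were fitted in R 4.3.3 with edgeR 4.0.16 (filterByExpr, TMM, quasi-likelihood test, all 40 libraries, no covariates), each dose was tested against vehicle, with Benjamini-Hochberg adjustment over 15373 genes. A call needed an adjusted p under 0.05 and a fold of at least 1.5, the fold threshold of the study's methods. The posterior probability used there is not installed here, and edgeR took its place. The trend was a slope over ordered dose steps 0 to 7. CPM used TMM-scaled sizes, log2 CPM a prior count of 2, and exon lengths and symbols came from a GENCODE M21 table that named 52083 identifiers. SD is between mice and SE from the fit. The floor of detection, 3 counts, was 0.191 CPM in vehicle and 0.125 CPM at 30 μg/kg, and covers counting error only. Within the 80 replicate pairs, chi-square divided by its degrees of freedom was 10.2 or more, so within a group none of the libraries were duplicates; libraries of different groups were not compared. Shares were tested by permutation, with p-values adjusted over 7 doses. Sequences came from RefSeq promoter tables (7 of the 9 genes matched), aligned with Biopython 1.88.

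The members, lists and tests were chosen with earlier results of these data known. All 9 members are named, and from each wider list up to 4 called genes with the largest change at 30 μg/kg. Others were named after their values were seen, where a role or a count needed them. Likeness used genes with a mean of at least 100 counts and gives the top 3. Alternatives were DESeq2 1.42.0, limma 3.58.1 on the log2 table as deposited (a planned log step was not needed), relative log expression factors, total counts alone, no filter, a mean of at least 50 counts, vehicle and the dose alone, title run as a covariate, the 2 runs apart, the sum of the strand columns, no fold threshold, linear dose, no 30 μg/kg group, and each library left out. The edgeR fit was tested on simulated data.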

Additional observations from a re-analysis of the deposited data

Results flagged for a closer look

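Within groups of 5 mice, 10 of 80 sets of values (the 9 genes and the Hamp2 share, at 8 doses) had 1 mouse set far from the other 4, with a gap of more than 0.71 of the range (Dixon's criterion), where chance gives about 5% of sets. No explanation was tested. At 30 μg/kg, Fth1 in replicate 1 was 2189 CPM while the other mice lay at 5064 CPM or above. Tfrc stood apart in vehicle replicate 1 (54.1 CPM, high), at 1 μg/kg in replicate 5 (40.4 CPM, high) and at 10 μg/kg in replicate 2 (23.1 CPM, low). At 0.1 μg/kg, replicate 4 was high for both Slc40a1 (148.2 CPM) and Bmp6 (5.97 CPM). At 0.3 μg/kg, Fth1 was high in replicate 5 (2295 CPM), and at 3 μg/kg Bmp6 was high in replicate 5 (6.34 CPM). The Hamp2 share was high in replicate 2 at 0.3 μg/kg (3.02%) and in replicate 2 at 1 μg/kg (2.05%).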

How the results depend on the processing

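The counts of called genes among the 9 at 0.03 to 1 μg/kg (0), at 10 μg/kg (3) and at 30 μg/kg (7, and 6 to 7 with 1 library left out) stayed within 1.5 times the main count under every alternative run, although with total counts alone the 7 were 5 higher and 2 lower in place of 3 and 4. Single genes still lost calls. Bmp6 lost its call at 10 μg/kg within either title run, and Slc11a2 its calls at 10 and 30 μg/kg with total counts alone. Hamp and Tfrc lost theirs at 30 μg/kg within run 1. At 3 μg/kg the count of 1 moved to 2 with total counts alone, with vehicle and the dose alone and with title run as a covariate, and to 0 with a mean of at least 50 counts, where Hamp2 was not tested, and within either title run. It ranged from 0 to 2 with 1 library left out, and was 0 without vehicle replicate 5 or replicate 2 or 3 of that dose and 2 without replicate 1 at 30 μg/kg or replicate 4 at 0.1 μg/kg. Without the 30 μg/kg group 3 genes kept a dose slope in place of 7, and the slopes of Tfrc, Slc40a1 and Hfe turned to -0.0027, -0.014 and -0.0015 per step. The step from 10 to 30 μg/kg gave 5 calls in place of 3 with total counts alone and 3 to 5 with 1 library left out, where Slc11a2 turned to 0.19 with total counts alone. Differences near 0 at 10 μg/kg changed sign: Tfrc with title run as a covariate (-0.015) and within run 1 (-0.30), Hfe within run 1 (-0.030) and by limma (-0.012), and Slc40a1 with total counts alone (0.18) and within run 2 (0.084). With 1 library left out they ranged from -0.025 to 0.23 for Tfrc, from -0.080 to 0.11 for Hfe and from -0.15 to 0.032 for Slc40a1. The slope of the Hamp2 share was -0.15 points per dose step within run 1 (permutation p = 0.0594) and ranged from -0.16 to -0.13 with 1 library left out. The count of 32 wider iron genes was 28 to 34 with 1 library left out, 32 by DESeq2 and 39 with no fold threshold. The cause of these changes was not tested. At 1 to 8 counts, Hamp2 at 30 μg/kg is limited by depth. No paired analysis was possible because the labels give no replicate numbers that link mice across groups.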

Other observations

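The erythroid markers did not move together at 30 μg/kg TCDD. Alas2, the first enzyme of heme synthesis in erythroid cells, was 94.6 ± 22.2 CPM in vehicle and 11.7 ± 13.7 CPM at 30 μg/kg (SD, n = 5), and every treated mouse was below every vehicle mouse (log2 fold change -3.02, SE 0.42, adjusted p = 1.05e-07, edgeR). Klf1, an erythroid transcription factor, was 3.33 ± 0.477 CPM in vehicle and 1.07 ± 0.371 CPM at 30 μg/kg (-1.63, adjusted p = 1.43e-05). The globin genes Hbb-bs (0.07), Hba-a1 (-0.05), Hbb-bt (0.02) and Hba-a2 (0.09) were not called at this dose. At 10 μg/kg none of the 6 tested erythroid markers was called by edgeR, with Alas2 at -0.70 (adjusted p = 0.173).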
